A study of Mus musculus with 9 samples.

Results

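The SLC25 family is the set of mitochondrial carriers, here every probe set of the array annotated with exactly 1 gene symbol of the form Slc25a followed by a number, with Slc25a15 and Slc25a20 left aside by the rule. It comprised 48 of the 28815 probe sets and covered 44 genes, 3 of which had more than 1 probe set. Liver RNA of female mice on a C57BL/6J background, aged 15 to 16 months and fed a standard chow, was hybridized to Mouse Gene 1.0 ST arrays of Affymetrix, each array holding the RNA of 1 mouse. The comparison had 3 groups: wild-type mice under short-term calorie restriction that was tightened in steps (WTCR, 3 arrays), mice homozygous for a disrupted Dgat1 gene and fed ad libitum (Dgat1-/-AL, 3 arrays), and wild-type mice fed ad libitum (WTAL, 3 arrays). Dgat1 encodes an acyltransferase that completes triglycerides, and the question was whether its loss, which makes mice lean without less food, changes the liver as CR does. The mutation is present in all cells of the animal, so an effect on the liver need not start in the liver. The feeding state at collection, which goes with the diet, cannot be told apart from CR itself.

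The SLC25 proteins are a family of related membrane proteins, most of them in the inner mitochondrial membrane, each built from repeats of the same fold. They exchange or import the solutes that cannot cross that membrane alone, such as ADP and ATP, phosphate, citrate and other carboxylates, amino acids, cofactors and iron. In the liver they connect the mitochondrial matrix with gluconeogenesis, the urea cycle, ketone body production and fatty acid synthesis in the cytosol. A few members sit elsewhere, in peroxisomes or in the outer mitochondrial membrane.

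All levels are log2 signals after RMA, and a difference of 1 is a change of 2-fold. Signals of different probe sets depend on their probes, so their levels are not compared in the text, and the mean signal served only in choosing which members to name. Calls of higher or lower required a fold over 1.3 together with a two-sided limma p under 0.05 before adjustment, and a Benjamini-Hochberg p adjusted over all 28815 probe sets stands beside them. Fold changes of the carriers are given ± SE and rest on 3 mice per group. With so few arrays, the precision of all values is limited.

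Dgat1 checked the labels. Its log2 signal was 8.89, 8.76 and 8.56 in WTCR, 6.14, 5.84 and 5.39 in Dgat1-/-AL and 7.86, 5.67 and 8.04 in WTAL livers. The array labelled WTAL replicate 2 thus had a Dgat1 signal like those of the mutants, against its label. Dgat1-/-AL replicate 1 stood apart from the other arrays on the second principal component of all probe sets (score -42.1, 26.4% of the variance), while the first (35.5%) separated the WTCR arrays from the rest. The mean log2 signal of 8 hepatocyte markers lay between 13.5 and 13.7 in all arrays. Of them, Tat alone was called in WTCR against Dgat1-/-AL livers (higher, log2 fold change 0.44). None was called in WTCR or Dgat1-/-AL livers against WTAL. Of the markers of other cell types, 4 of 12 macrophage genes were lower in WTCR and 4 of 12 in Dgat1-/-AL livers, and 4 of 7 B cell genes were lower in WTCR and 1 of 7 in Dgat1-/-AL livers. In liver pieces, fewer cells of a type and less RNA per cell cannot be told apart.

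With calorie restriction 15 of the 48 SLC25 probe sets were called, in both directions. Of these, 10 probe sets of 8 genes were higher in WTCR than in WTAL livers: Slc25a5, Slc25a3, Slc25a12, Slc25a32, Slc25a16, Slc25a39, Slc25a28 and Slc25a47. Another 5, of 5 genes, were lower: Slc25a30, Slc25a25, Slc25a45, Slc25a36 and Slc25a17. The called share was 31.2% of the family, against 8.06% of all probe sets (20.8% higher against 4.25%, and 10.4% lower against 3.81%). All probe sets include many dim ones. Without the third of lowest mean signal, which kept 42 of the 48 members, the share of all was 11.4%. In Dgat1-/-AL livers 1 probe set, that of Slc25a30, was lower and 0 were higher, or 2.08% of the family against 1.23% of all probe sets (0.760% lower and 0.465% higher).

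In WTCR against WTAL livers, 10 members (8 genes) also passed an adjusted p of 0.05, where 3.03% of all probe sets did. In Dgat1-/-AL against WTAL livers, 0 members and 0 of all probe sets passed it by limma. There, 6 members and 4.57% of all probe sets had an unadjusted p under 0.05, and 3 of the 6 were the probe sets of Slc25a5. An ordinary test on the arrays of each comparison alone, without limma's moderation of the spread, also left 0 members there after adjustment. All 15 members called with CR had WTCR arrays that did not overlap the WTAL arrays. The calls came from these same arrays, so this is not separate support for them. Across the family the WTCR arrays lay wholly above the WTAL arrays in 15 probe sets (11.2% of all probe sets did) and wholly below in 7 (8.44%). The 3 probe sets of Slc25a5 were among those above. The median log2 fold change was 0.04 in WTCR and 0.05 in Dgat1-/-AL livers over the family, against 0.00 and -0.00 over all probe sets. For Dgat1-/-AL, 5 probe sets, some of them of Slc25a5, lay wholly above WTAL (3.16% of all did) and 1 wholly below (3.86%). Both comparisons share the WTAL arrays.

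**Figure D1:**
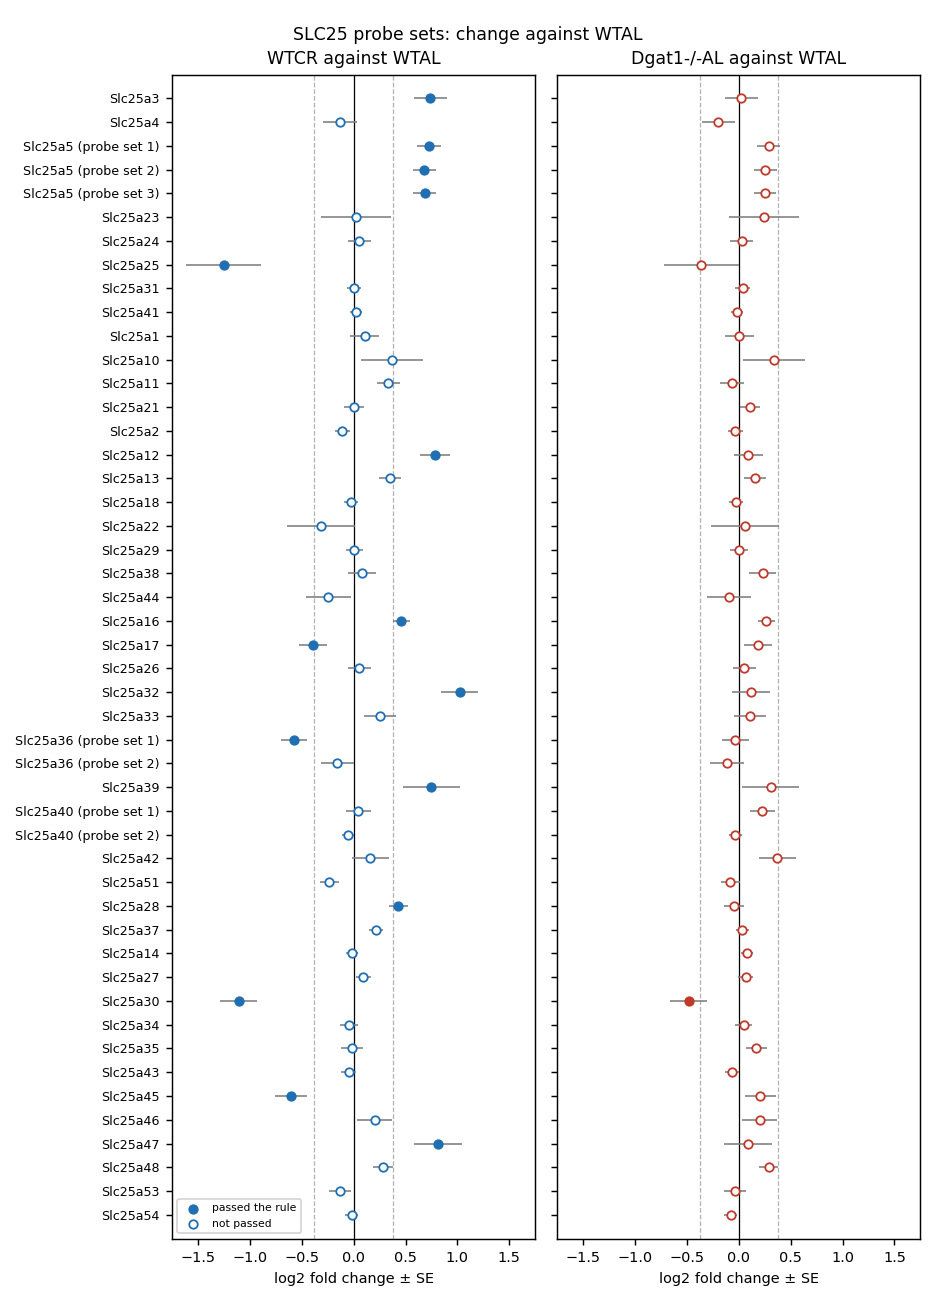
Log2 fold change against WTAL with its SE (x axis) of the 48 SLC25 probe sets (y axis, ordered by what they carry), in WTCR livers on the left and in Dgat1-/-AL livers on the right. Filled points passed the rule, and dashed lines mark a fold of 1.3. The WTCR values run between -1.25 and 1.02, whereas those of Dgat1-/-AL run between -0.48 and 0.37.

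The calls with CR held to different degrees. Without any 1 of the 9 arrays, 8 to 12 members were higher and 4 or 5 lower in WTCR against WTAL livers, and 11 of the 15 calls held in every such fit. The number past an adjusted p of 0.05 was less stable and fell to 0 without WTAL replicate 3, 1 without WTCR replicate 3, 3 without WTAL replicate 1 or WTCR replicate 1, 4 without WTCR replicate 2, and 5 without WTAL replicate 2. Without the array labelled WTAL replicate 2, 12 members were higher and 4 lower.

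The adenine nucleotide and phosphate carriers supply oxidative phosphorylation with its substrates, and 4 of their 10 probe sets (2 of 8 genes) were higher and 1 lower with CR. Slc25a5 encodes ANT2, an exchanger of matrix ATP for cytosolic ADP. At one of its probe sets the log2 signal was 11.32, 11.17 and 11.33 in WTCR livers, 10.83, 10.72 and 10.94 in Dgat1-/-AL livers, and 10.30, 10.72 and 10.61 in WTAL livers. Every WTCR array was above every array of the other groups, and the Dgat1-/-AL arrays were just above the WTAL arrays. The log2 fold change was 0.73 ± 0.11 in WTCR livers (adjusted p = 0.0176 from limma) and 0.29 ± 0.11 in Dgat1-/-AL livers, under the fold minimum.

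Its other 2 probe sets carry the same annotation and gave nearly the same profile over the arrays (lowest correlation 0.9985), so that they do not count as separate observations. One read 11.96, 11.81 and 11.95 in WTCR, 11.49, 11.37 and 11.57 in Dgat1-/-AL and 10.99, 11.37 and 11.31 in WTAL livers, with a log2 fold change of 0.68 ± 0.11 for CR (adjusted p = 0.0180 from limma). The other read 11.94, 11.81 and 11.98 in WTCR, 11.50, 11.38 and 11.57 in Dgat1-/-AL and 10.99, 11.39 and 11.31 in WTAL livers, also with 0.68 ± 0.11 (adjusted p = 0.0195). In both, as in the first, WTCR was above all other arrays. Slc25a5 has processed copies in the mouse genome, so which locus each of these probe sets reads is uncertain.

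Slc25a3, the carrier that brings in the phosphate for ATP synthesis, had log2 signals of 10.36, 10.27 and 10.27 in WTCR livers, 9.92, 9.24 and 9.60 in Dgat1-/-AL livers, and 9.36, 9.62 and 9.70 in WTAL livers. The WTCR values were tightly grouped above all others, and the other groups overlapped. Against WTAL its log2 fold change was 0.74 ± 0.16 in WTCR (adjusted p = 0.0477 from limma) and 0.03 ± 0.16 in Dgat1-/-AL livers. Slc25a4, which encodes ANT1, the isoform known best from heart and muscle, gave -0.13 ± 0.16 in WTCR and -0.20 ± 0.16 in Dgat1-/-AL livers, neither past the rule.

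Slc25a25 encodes a calcium-regulated carrier of ATP-Mg and phosphate, which adjusts the adenine nucleotide content of the matrix. Its log2 signal was 7.80, 6.59 and 7.21 in WTCR livers, 7.96, 8.32 and 7.99 in Dgat1-/-AL livers, and 7.99, 8.16 and 9.21 in WTAL livers. All WTCR arrays were below all others, but the WTCR and WTAL values were each widely spread. The fall with CR, -1.25 ± 0.36 or 2.38-fold, was the largest of the family in size and did not pass adjustment (adjusted p = 0.124 from limma), and its call ended in the unmoderated test. The other carriers of this kind, Slc25a23, Slc25a24 and Slc25a41, gave 0.02 ± 0.34, 0.05 ± 0.11 and 0.03 ± 0.06 and were not called. Slc25a31, an isoform of the exchanger known from the testis, gave 0.00 ± 0.07.

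Slc25a25 and Slc25a36 were the members whose RefSeq promoter held the palindrome TGACGTCA, the cAMP response element to which CREB-type factors bind, and a probe set of each was lower with CR. The sequence is therefore shown for both, as the 250 bases before an annotated start in GRCm38.p6 (chr2:32424067-32424316 and chr9:97111042-97111291, each on the minus strand), with that palindrome in capitals and, in Slc25a36, the palindrome CACGTG in capitals as well.
Slc25a25: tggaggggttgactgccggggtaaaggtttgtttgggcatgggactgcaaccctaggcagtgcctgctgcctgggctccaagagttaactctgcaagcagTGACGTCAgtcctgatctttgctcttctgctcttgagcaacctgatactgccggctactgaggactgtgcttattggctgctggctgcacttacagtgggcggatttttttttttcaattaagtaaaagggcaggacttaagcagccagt
Slc25a36: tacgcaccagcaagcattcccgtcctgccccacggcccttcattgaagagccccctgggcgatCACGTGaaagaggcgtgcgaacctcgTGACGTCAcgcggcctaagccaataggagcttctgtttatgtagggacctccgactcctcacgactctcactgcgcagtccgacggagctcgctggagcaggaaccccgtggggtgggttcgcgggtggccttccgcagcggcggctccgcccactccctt
The element begins at base 101 of the first and at base 90 of the second. Slc25a25 has 3 promoters in the table, of which 1 holds it. Promoters of 300 bases (250 before to 50 after the start) were listed for 34 of the 44 genes, and being palindromes the motifs were read on both strands at once. TGACGTCA was in 2 of the 43 promoters of the family and in 1.79% of all 32851 promoters. CACGTG, an E-box of the kind bound by basic helix-loop-helix factors such as those of the clock, was in 7 of the 43, against 7.15% of all. Its 6 genes were Slc25a1, Slc25a13, Slc25a14, Slc25a31, Slc25a33 and Slc25a36, of which Slc25a36 alone was called. Overlapping promoters of Slc25a14 held the same site, which was counted in each. TTACGTAA, a D-box of the kind bound by DBP and NFIL3, was in 0 of the 43, against 0.119% of all. A match is only a match of letters.

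The carriers of citrate and other carboxylates include exporters of building blocks for fatty acid and glucose synthesis. Of the 4 probe sets of this group, 0 was called in WTCR or Dgat1-/-AL against WTAL livers. Slc25a1, which exports citrate for fatty acid synthesis, gave 0.11 ± 0.14 in WTCR and 0.01 ± 0.14 in Dgat1-/-AL livers. Slc25a11, the oxoglutarate carrier of the malate-aspartate shuttle, read 9.89, 9.64 and 9.57 in WTCR, 9.17, 9.27 and 9.45 in Dgat1-/-AL and 9.28, 9.51 and 9.30 in WTAL livers. All its WTCR arrays were above all others. Its log2 fold change of 0.34 ± 0.11 against WTAL stayed under the fold minimum and passed it without WTAL replicate 2 (0.41) or WTCR replicate 3 (0.40).

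Among the 8 amino acid carriers 1 was higher with CR. Slc25a12 encodes aralar, an aspartate/glutamate carrier that completes the malate-aspartate shuttle and is known mainly from brain, heart and muscle. Its log2 signal was 8.51, 8.58 and 8.83 in WTCR livers, 8.17, 7.89 and 7.77 in Dgat1-/-AL livers, and 7.68, 7.79 and 8.09 in WTAL livers. The WTCR arrays were above all others, and the Dgat1-/-AL and WTAL arrays overlapped. On the log2 scale the difference from WTAL was 0.79 ± 0.14 in WTCR livers (1.72-fold, adjusted p = 0.0258 from limma) and 0.09 ± 0.14 in Dgat1-/-AL livers.

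Slc25a13 encodes citrin, the aspartate/glutamate carrier of the hepatocyte, which provides aspartate for the urea cycle. Its values of 11.51, 11.21 and 11.29 in WTCR, 11.09, 11.04 and 11.30 in Dgat1-/-AL and 10.87, 11.13 and 10.96 in WTAL livers gave 0.35 ± 0.11 for CR (unadjusted p = 0.0112 from limma), under the fold minimum. The WTCR arrays did not overlap the WTAL arrays. It passed the rule without WTAL replicate 2 (0.42) or WTCR replicate 2 (0.41). Slc25a44, a carrier of branched-chain amino acids, gave -0.24 ± 0.21 in WTCR and -0.10 ± 0.21 in Dgat1-/-AL livers. The 7 uncalled members of this group lay between -0.31 and 0.35 with CR.

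Cofactor and pyrimidine nucleotide carriers moved in both directions, with 3 of 12 probe sets (3 of 10 genes) higher and 2 lower with CR. Slc25a32, which brings folate into mitochondria and is also linked to FAD, rose most of all members. Its log2 signal was 9.24, 8.75 and 8.84 in WTCR livers, 8.17, 7.76 and 8.20 in Dgat1-/-AL livers, and 7.68, 8.21 and 7.89 in WTAL livers. Every WTCR array was above every other array, and Dgat1-/-AL and WTAL overlapped. Relative to WTAL its log2 fold change was 1.02 ± 0.18 in WTCR livers (2.03-fold, adjusted p = 0.0247 from limma) and 0.12 ± 0.18 in Dgat1-/-AL livers.

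Slc25a16, a carrier linked to the supply of coenzyme A, read 9.30, 8.99 and 9.07 in WTCR, 8.92 in each of the Dgat1-/-AL arrays, and 8.65, 8.65 and 8.69 in WTAL livers. The groups followed each other without overlap, with WTCR highest and WTAL lowest. Its log2 fold change was 0.46 ± 0.08 for CR (adjusted p = 0.0249 from limma), and the call ended without WTCR replicate 1 (0.37), whereas the 0.26 ± 0.08 of Dgat1-/-AL livers was under the fold minimum. Identical values in all arrays of a group, as for Slc25a16 in Dgat1-/-AL, occurred in 4 of the 48 members (Slc25a16, Slc25a26, Slc25a29 and Slc25a41), 8.33%, against 7.01% of all probe sets, and make the spread of such a group 0.

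Slc25a39, required for the import of glutathione, read 11.71, 11.29 and 11.33 in WTCR, 11.64, 10.63 and 10.72 in Dgat1-/-AL and 10.33, 10.91 and 10.84 in WTAL livers. The WTCR arrays were above the WTAL arrays, and Dgat1-/-AL replicate 1 reached the WTCR level while its group mates stayed at that of WTAL. With CR the log2 fold change was 0.75 ± 0.27 (adjusted p = 0.223 from limma), which missed the rule once WTAL replicate 1 (0.57) or WTCR replicate 1 (0.62) was left out, and also once quantile normalization was repeated (0.62). Its paralog Slc25a40 gave 0.05 ± 0.12 and -0.05 ± 0.06 at its 2 probe sets.

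The pyrimidine nucleotide carrier Slc25a36 read 5.58, 5.89 and 5.90 in WTCR, 6.27, 6.57 and 6.17 in Dgat1-/-AL and 6.41, 6.26 and 6.43 in WTAL livers at one probe set. The WTCR arrays lay below all others there. Its log2 fold change with CR was -0.58 ± 0.13 (adjusted p = 0.0492 from limma), but its other probe set gave -0.16 ± 0.16 and was not called. The probe sets of this gene thus had the same direction but not the same call, and the difference between them was not tested. Slc25a33, which carries the same kind of nucleotides, gave 0.25 ± 0.16. Slc25a51, which brings NAD into mitochondria, gave -0.23 ± 0.10 with CR, with no overlap between the WTCR and WTAL arrays, but stayed under the fold minimum. Slc25a42, a coenzyme A carrier, gave 0.37 ± 0.18 in Dgat1-/-AL livers and did not pass the rule (unadjusted p = 0.0670 from limma). Without Dgat1-/-AL replicate 1 its value was 0.14, whereas it passed the rule without Dgat1-/-AL replicate 2 (0.47) or 3 (0.49). The 7 uncalled probe sets of this group lay between -0.23 and 0.25 with CR, and all 12 between -0.11 and 0.37 in Dgat1-/-AL livers.

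Slc25a17 encodes a peroxisomal carrier of coenzyme A, FAD and related nucleotides. It read 8.61, 8.34 and 8.27 in WTCR, 9.03, 8.78 and 9.15 in Dgat1-/-AL and 8.65, 9.001 and 8.75 in WTAL livers. The WTCR arrays were below all others, with WTCR replicate 1 close to the lowest WTAL array. Its log2 fold change of -0.40 ± 0.13 with CR was near the fold minimum (adjusted p = 0.188 from limma), and the call ended without WTAL replicate 2 (-0.30), WTCR replicate 2 (-0.37) or WTCR replicate 3 (-0.33), and in the unmoderated test.

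**Figure D2:**
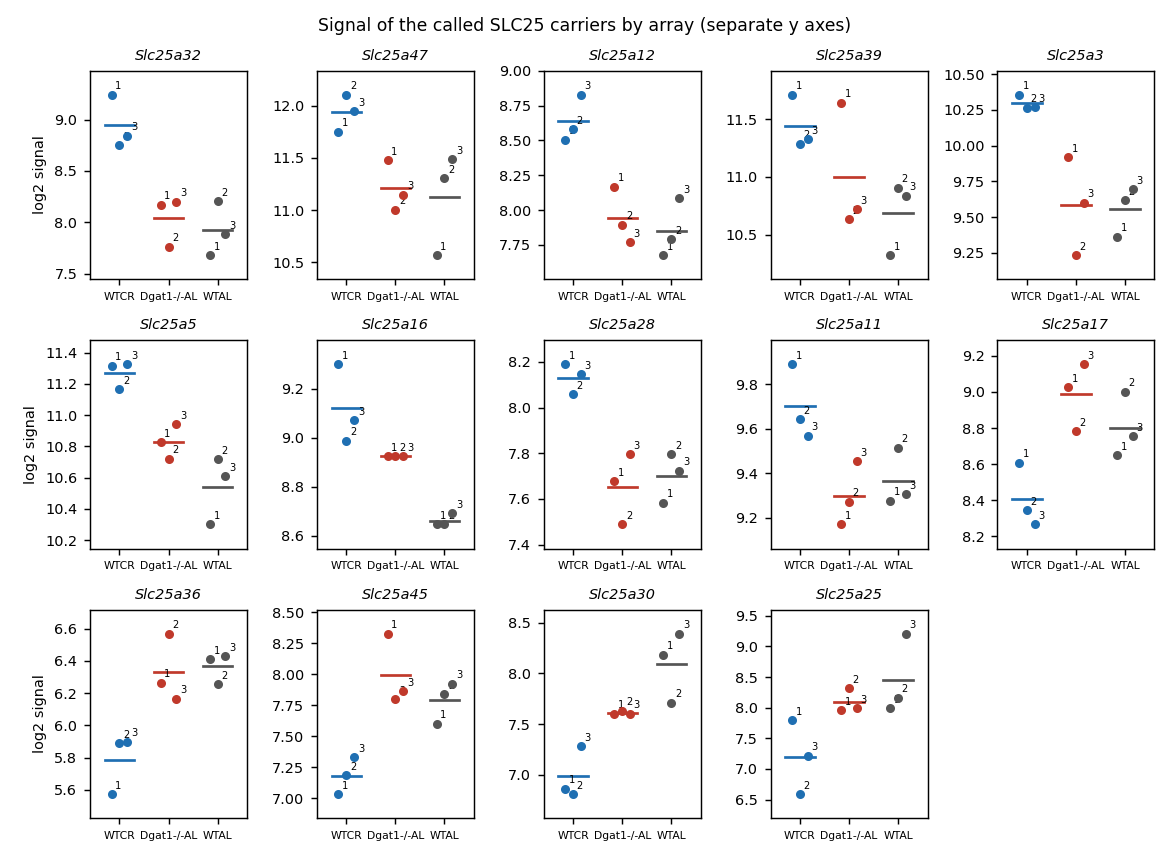
Log2 signal (y axis, a separate scale in each panel) of the 14 SLC25 genes called in any comparison, by group (x axis: WTCR, Dgat1-/-AL, WTAL), each point being 1 array with its replicate number and each line a group mean. For Slc25a5 and Slc25a36 a called probe set is drawn. The panels run from Slc25a32 (log2 fold change 1.02 with CR) to Slc25a25 (-1.25), and the Dgat1-/-AL points overlap those of WTAL in all panels but Slc25a5, Slc25a16 and Slc25a30.

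The mitoferrins import the iron for heme and iron-sulfur cluster synthesis. Slc25a28, mitoferrin 2, had log2 signals of 8.19, 8.06 and 8.15 in WTCR livers, 7.68, 7.49 and 7.80 in Dgat1-/-AL livers, and 7.58, 7.80 and 7.72 in WTAL livers. The WTCR arrays were above all others, which overlapped. The log2 fold change was 0.43 ± 0.09 with CR (adjusted p = 0.0480 from limma), a call that ended without WTAL replicate 1 (0.37), and -0.05 ± 0.09 in Dgat1-/-AL livers. Slc25a37, mitoferrin 1, which serves developing red cells, gave 0.22 ± 0.06 in WTCR livers with no overlap with WTAL, under the fold minimum, and 0.04 ± 0.06 in Dgat1-/-AL livers.

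Among the 3 members related to the uncoupling proteins, Slc25a30 was lower in both WTCR and Dgat1-/-AL livers. It was first described as a kidney mitochondrial carrier and transports sulfate and thiosulfate. Its log2 signal was 6.86, 6.81 and 7.28 in WTCR livers, 7.60, 7.63 and 7.60 in Dgat1-/-AL livers, and 8.18, 7.71 and 8.39 in WTAL livers. The groups did not overlap, with WTCR lowest, Dgat1-/-AL between and WTAL highest, and the array labelled WTAL replicate 2 was nearest to Dgat1-/-AL. The log2 fold change was -1.11 ± 0.18 in WTCR livers (2.16-fold lower, adjusted p = 0.0189 from limma) and -0.48 ± 0.18 in Dgat1-/-AL livers (unadjusted p = 0.0246, adjusted p = 0.972 from limma). The Dgat1-/-AL call ended in 5 of the 9 fits without 1 array, those without any Dgat1-/-AL array (-0.49 to -0.48) or without WTAL replicate 1 or 3, with values from -0.68 to -0.34 over all of them, and it held without the array labelled WTAL replicate 2 (-0.68). It also ended in the unmoderated test. Slc25a27, also called UCP4, gave 0.09 ± 0.07 in WTCR and 0.07 ± 0.07 in Dgat1-/-AL livers, and Slc25a14, or UCP5, -0.01 ± 0.06 in WTCR and 0.08 ± 0.06 in Dgat1-/-AL livers.

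The remaining members have a less defined substrate. Slc25a47, a carrier found mainly in liver, read 11.75, 12.11 and 11.95 in WTCR, 11.48, 11.002 and 11.15 in Dgat1-/-AL and 10.57, 11.31 and 11.49 in WTAL livers. The WTCR arrays were above all others, and WTAL replicate 1 was far below the other WTAL arrays. The log2 fold change with CR was 0.81 ± 0.23 (adjusted p = 0.116 from limma), between 0.54 and 0.998 without any 1 array, and among the alternatives run the call was lost only in the unmoderated test.

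Slc25a45 moved the other way. Its log2 signal was 7.04, 7.19 and 7.33 in WTCR livers, 8.33, 7.80 and 7.87 in Dgat1-/-AL livers, and 7.60, 7.84 and 7.92 in WTAL livers. The WTCR arrays lay below all others, and Dgat1-/-AL replicate 1 was the highest. Its log2 fold change was -0.61 ± 0.15 with CR (adjusted p = 0.0788 from limma) and 0.21 ± 0.15 in Dgat1-/-AL livers. Slc25a48 gave 0.28 ± 0.09 in WTCR and 0.29 ± 0.09 in Dgat1-/-AL livers, both under the fold minimum. Slc25a46, an outer membrane protein of mitochondrial shape control, gave 0.20 ± 0.17 in both. The 7 uncalled members of this group lay between -0.13 and 0.28 with CR, and all 9 between -0.08 and 0.29 in Dgat1-/-AL livers. Over the whole family 30 of the 44 genes had no probe set called in any of the 3 comparisons.

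**Figure D3:**
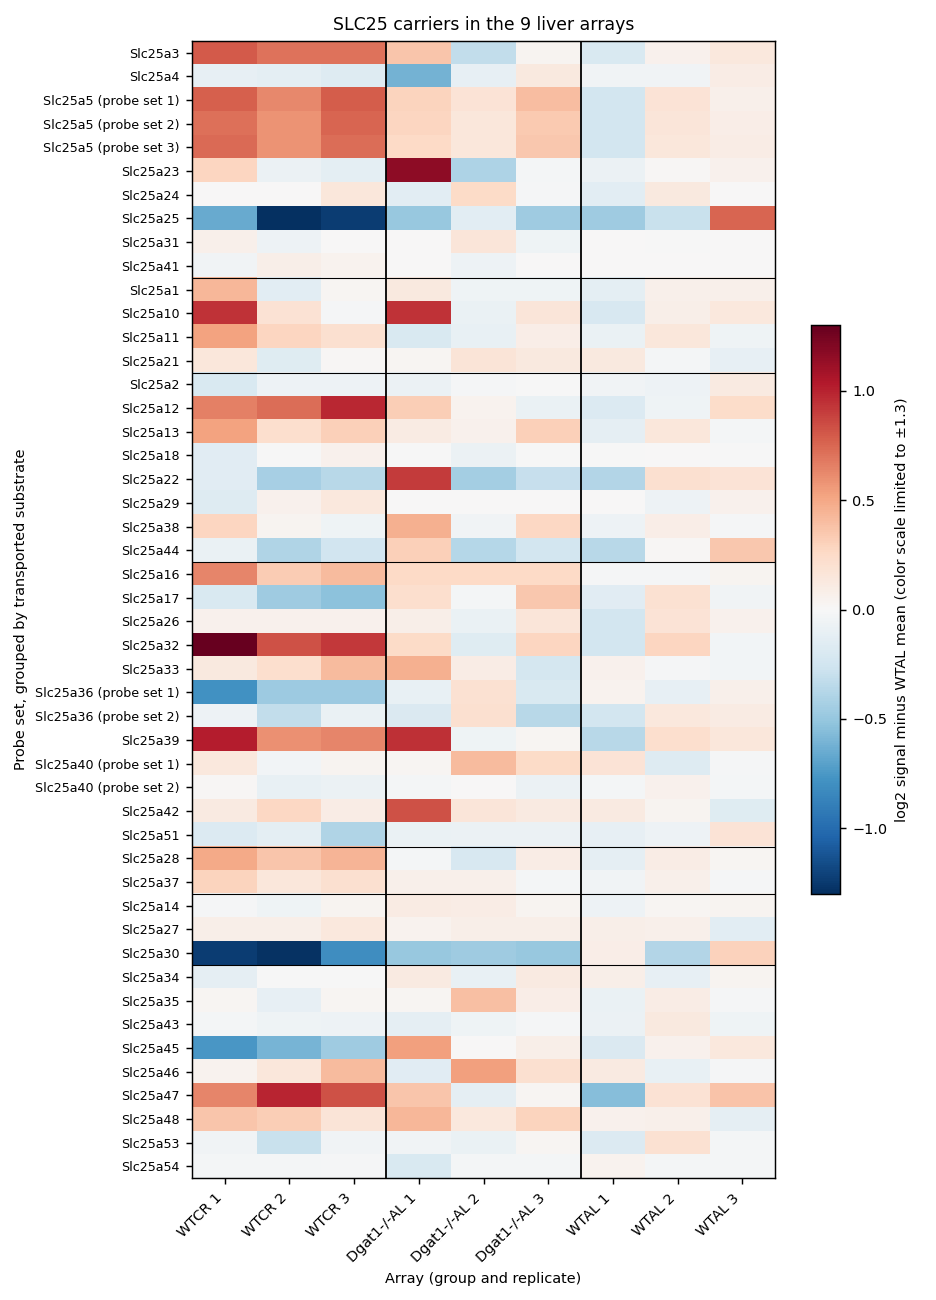
Log2 signal minus the WTAL mean (color, limited to ±1.3) of the 48 SLC25 probe sets (rows, separated by what they carry) in the 9 arrays (columns: WTCR, Dgat1-/-AL, WTAL). The WTCR columns hold the strongest reds and blues in most called rows, and Dgat1-/-AL replicate 1 stands out in single rows such as Slc25a23 and Slc25a10.

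Chromosomal neighbors within the family did not all follow each other. In the RefSeq gene order, Slc25a29 and Slc25a47 are adjacent protein-coding genes with log2 fold changes of 0.01 and 0.81 in WTCR against WTAL livers. Slc25a43 is next to Slc25a5 and gave -0.05, with 0.68 to 0.73 for the probe sets of Slc25a5, of which the locus read is uncertain. The adjacent pairs Slc25a41 and Slc25a23, and Slc25a54 and Slc25a24, were not called.

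The direct comparison of WTCR with Dgat1-/-AL livers asked, for each probe set alone, whether CR and DGAT1 deficiency differed. Here 9 probe sets were higher in WTCR (18.8% of the family, 4.66% of all probe sets) and 5 were lower (10.4%, 3.93%), together 29.2% of the family against 8.59% of all. Without the third of lowest mean signal the share of all was 12.2%. The WTCR arrays lay wholly above those of Dgat1-/-AL in 11 members (9.05% of all probe sets) and wholly below in 6 (7.10%). The higher ones were Slc25a5 with its 3 probe sets, Slc25a32, Slc25a12, Slc25a28, Slc25a3, Slc25a47 and Slc25a11, and the lower ones Slc25a45, Slc25a17, Slc25a36, Slc25a30 and Slc25a25. Of these, Slc25a32 (0.90 ± 0.18, adjusted p = 0.0379), Slc25a12 (0.69 ± 0.14, 0.0404), Slc25a28 (0.48 ± 0.09, 0.0346) and Slc25a45 (-0.81 ± 0.15, 0.0294) passed an adjusted p of 0.05 by limma, 4 members where 3.06% of all probe sets passed.

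The replicate numbers were taken to pair the arrays of these 2 groups, from correlations in the data and not from a label. With that number as a block, 0 members passed the adjusted threshold, and 9 were higher and 4 lower by the unadjusted rule in the fit of all arrays (10 and 5 in a fit of these groups alone). The call lost in the fit of all arrays was that of Slc25a25 (-0.89 ± 0.36), which also ended without WTCR replicate 2 (-0.58), WTCR replicate 3 (-0.90), Dgat1-/-AL replicate 1 (-0.95), Dgat1-/-AL replicate 2 (-0.78) or Dgat1-/-AL replicate 3 (-0.94), and in the unmoderated test. The 3 calls of Slc25a5 ended when quantile normalization was repeated (0.26, 0.28 and 0.29), and 2 of them without Dgat1-/-AL replicate 2 (0.37 and 0.38). Slc25a11 was called in the direct comparison only (0.40 ± 0.11, adjusted p = 0.107) and not without Dgat1-/-AL replicate 1 (0.34) or WTCR replicate 1 (0.31), nor after repeated quantile normalization (0.37). Slc25a39 was not called (0.44 ± 0.27), but was without Dgat1-/-AL replicate 1 (0.76) and under the block in a fit of these 2 groups alone. Without the array labelled WTAL replicate 2, which enters this comparison through the estimate of the spread, 1 member passed the adjusted threshold.

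Single arrays weighed on some members. In Dgat1-/-AL replicate 1, 8 of the 48 members were more than 0.5 above the mean of the other 2 Dgat1-/-AL arrays, 16.7% against 6.8% of all probe sets. Another 2 were as far below in that array, as were 1328 of all 28815 probe sets. Slc25a23 read 10.05 there against 8.50 and 8.87 in its group mates, and Slc25a22, a glutamate carrier, 8.95 against 7.60 and 7.75. Slc25a10, the dicarboxylate carrier, was high in replicate 1 of both WTCR (9.97, with 9.22 and 9.01 in the others) and Dgat1-/-AL (0.91 above its group mates). None of these 3 genes was called in any comparison, and they were picked after their values were seen.

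**Figure D4:**
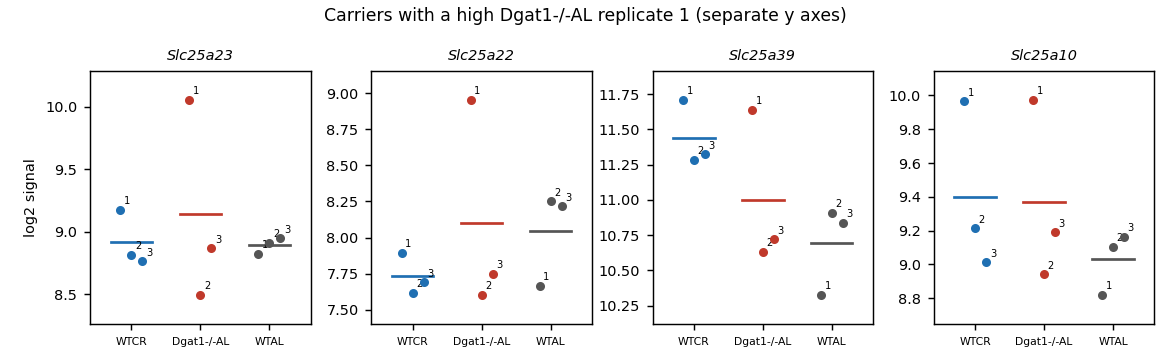
Log2 signal (y axis, a separate scale in each panel) of Slc25a23, Slc25a22, Slc25a39 and Slc25a10 by group (x axis: WTCR, Dgat1-/-AL, WTAL), each point being 1 array with its replicate number and each line a group mean. Dgat1-/-AL replicate 1 lies 1.37, 1.28, 0.96 and 0.91 above the mean of the other Dgat1-/-AL arrays.

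Proteins that work with the carriers were listed beside them. Carrier precursors pass through the TOM complex of the outer membrane and are escorted by small TIM chaperones to the TIM22 insertase, and solutes reach the carriers through the porins. Of 13 probe sets (11 genes) for this import machinery, 3 (3 genes) were higher and 0 lower in WTCR against WTAL livers, where 4.25% and 3.81% of all probe sets were. In Dgat1-/-AL livers 0 were called, against 1.23% of all. Tomm40, the import pore, read 8.45, 8.29 and 8.25 in WTCR, 7.99, 7.79 and 7.84 in Dgat1-/-AL and 7.81, 7.92 and 7.72 in WTAL livers. The chaperone Timm10 read 7.99, 7.99 and 7.94 in WTCR, 7.38, 7.30 and 7.58 in Dgat1-/-AL and 7.42, 7.58 and 7.41 in WTAL livers. In both genes the WTCR arrays were above all others.

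The log2 fold change with CR was 0.51 for Tomm40 (adjusted p = 0.0208 from limma) and 0.50 for Timm10 (adjusted p = 0.0218), and the difference from Dgat1-/-AL livers was 0.45 and 0.56 (adjusted p = 0.0300 and 0.0161). Timm9, the partner chaperone of Timm10, gave 0.42 (adjusted p = 0.191). Against Dgat1-/-AL, 7 of the 13 probe sets, but only 5 of the 11 genes, were higher, where 4.66% of all probe sets were. Those added were of Tomm20, a receptor of the TOM complex (0.44 and 0.42), and Timm8a1, another small chaperone (0.54 and 0.59). In both genes Dgat1-/-AL replicate 1 was the lowest of the 9 arrays. Without that array Tomm20 gave 0.21 and 0.20 and Timm8a1 0.24 and 0.29, none was called, and 3 of the 13 were higher. The count was also 3 without WTCR replicate 2 or WTCR replicate 3, and 4 without any 1 of the WTAL arrays. Tomm40, Timm9 and Timm10 were higher than in Dgat1-/-AL livers without any 1 array. Against WTAL the count was 2 to 5 without any 1 array, and it was 2 without WTAL replicate 2, WTCR replicate 2 or WTCR replicate 3, where Timm9 was not called (0.36, 0.33 and 0.34). The count was 5 without WTCR replicate 1 or Dgat1-/-AL replicate 1, where both probe sets of Timm8a1 were added.

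Of 6 porin probe sets (3 genes), 3 (2 genes) were higher in WTCR against WTAL livers, where 4.25% of all probe sets were. Vdac1 gave 0.47 and Vdac2 0.49 and 0.50, none at an adjusted p of 0.05 (0.0659, 0.111 and 0.0745 from limma). The first of Vdac2 was not called without WTAL replicate 1 (0.37). The 3 probe sets of Vdac3 gave -0.02, -0.02 and -0.01 (2 of them held identical values), so that this porin was not called. Mtch2, a carrier homolog that inserts proteins into the outer membrane, was higher at both probe sets (0.42 and 0.39, adjusted p = 0.0559 and 0.0607). Both were under the fold minimum without WTAL replicate 3 (0.38 and 0.36), and the second also without WTAL replicate 1 (0.36) or WTCR replicate 3 (0.35). Mpc1, a subunit of the pyruvate carrier of another family, gave 0.12 with CR and was not called. In Dgat1-/-AL against WTAL livers 0 of these probe sets was called, where 1.23% of all probe sets were.

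**Figure D5:**
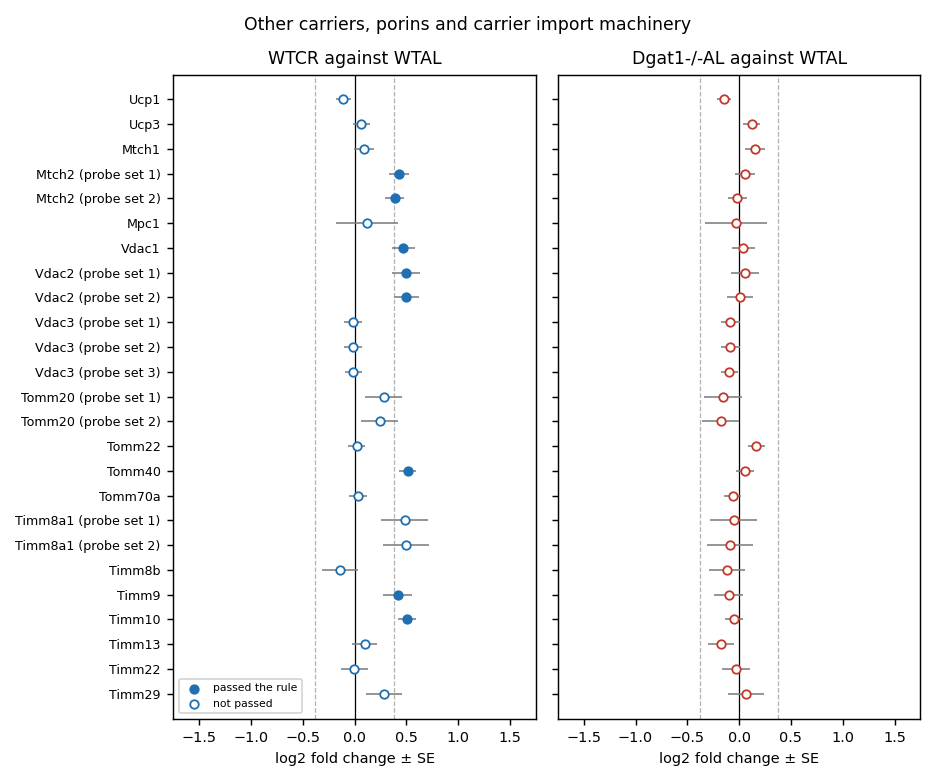
Log2 fold change against WTAL with its SE (x axis) of other carriers, porins and the carrier import machinery (y axis), in WTCR livers on the left and in Dgat1-/-AL livers on the right, with filled points past the rule and dashed lines at a fold of 1.3. Tomm40 (0.51) and Timm10 (0.50) are past it in WTCR livers, and 0 probe sets are in Dgat1-/-AL livers.

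Markers of other liver cells moved together with some of these comparisons. In WTCR livers the mean log2 signal of the B cell markers was 4.63 to 4.65, against 5.12 to 5.55 in WTAL livers, that of the stellate cell markers 7.53 to 7.62, against 7.76 to 7.81, and that of the T and NK cell markers 4.66 to 4.74, against 4.89 to 5.11, all without overlap. Of the genes, 3 of 8 stellate cell and 2 of 7 T and NK cell markers were lower in WTCR than in WTAL livers, where 3.81% of all probe sets were. In Dgat1-/-AL livers the B cell markers had 4.72 to 5.03, against 5.12 to 5.55 in WTAL livers, also without overlap. The macrophage markers overlapped, with 8.04 to 8.69 in WTCR and 8.36 to 9.03 in WTAL livers. In Dgat1-/-AL against WTAL livers, 3 of the 8 endothelial genes were higher and 2 lower, with overlapping mean signals of 7.50 to 7.80 and 7.37 to 7.57. Of all probe sets, 0.465% were higher and 0.760% lower in that comparison. In WTCR against Dgat1-/-AL livers, 6 of the 8 endothelial genes were lower and 1 was higher, where 3.93% and 4.66% of all probe sets were. Their mean signal was 7.08 to 7.45 in WTCR and 7.50 to 7.80 in Dgat1-/-AL livers. The part of these cells in the lower signals of Slc25a30, Slc25a25, Slc25a45, Slc25a36 and Slc25a17 with CR, or of Slc25a30 in Dgat1-/-AL livers, was not tested.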

How the data were processed

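The authors deposited log2 signals from RMA, a method that removes background, brings the arrays to a common distribution by quantile normalization and reduces each probe set to 1 value (Mouse Gene 1.0 ST, 1 table for the whole series). RMA values leave no measure of background, so no probe set could be called absent. All 9 columns were matched to samples by their labels, and 0 value columns were left unmapped. The authors' own comparisons were not used.

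Gene symbols came from GEO's platform annotation (21780 probe sets with 1 symbol, 1605 with several, 5430 with none), and all 44 genes matched the RefSeq GRCm38.p6 gene table. Promoters are from RefSeq. With limma 3.58.1 in R 4.3.3, 1 mean per group was fitted to all 28815 probe sets without a filter. The rule for calls (fold over 1.3, p under 0.05 before adjustment) follows the study's own. Drawing and counting used Python 3.11.15. The fit was tested on simulated data with independent noise. These held no outlying array, paired replicates or doubted label, so that test does not bear on those doubts.

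The members, classes and gene lists were chosen with earlier results of these data known. Every called member, in each class the 2 members of highest mean signal, and every called gene among the other carriers, porins and import machinery are named (marker lists are given by counts), with the 12 called members of smallest p given array by array. Residuals of arrays with the same replicate number correlated at 0.21 to 0.48 between WTCR and Dgat1-/-AL, so the numbers were taken as pairs there, from the data and not from a label. With WTAL they did not (-0.32 to 0.05). Arrays of different number reached 0.18 between WTCR and Dgat1-/-AL, and 0.31 between WTAL replicate 3 and Dgat1-/-AL replicate 1. The pairing is therefore uncertain. Alternatives were the block, other sets of arrays, rescaling, a signal filter, other variance models and thresholds. Other settings, namely 1 probe set per gene, the block in a fit of WTCR and Dgat1-/-AL alone, and each array left out for porins, import machinery and uncalled members, were added after the data were seen. Ucp2, Mpc2 and Timm10b had no probe set with 1 symbol.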

Additional observations from a re-analysis of the deposited data

How the results depend on the processing

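With 3 arrays per group, and 1 WTAL array against its label, the adjusted counts depended most on the processing, and no called member changed direction under the alternatives run. Values near 0 of uncalled members could change sign, as that of Slc25a1 with CR did without WTCR replicate 1 (-0.06). In WTCR against WTAL livers, 10 members passed the adjusted threshold. Under the replicate block, where the WTAL numbers do not pair with the others, the count was 4. It was 6 without WTAL replicate 2 and Dgat1-/-AL replicate 1 together, 6 with an intensity trend and robust spread, 0 by the ordinary test without moderation on the arrays of the groups compared (the unmoderated test), and 0 to 11 without any 1 array. The unmoderated test and a fold over 1.5 each left 3 lower members, and 8 to 12 were higher and 4 to 5 lower without any 1 array.

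In Dgat1-/-AL against WTAL livers, 0 to 1 was higher and 0 to 1 lower without any 1 array. With no fold minimum 5 were higher, of which 3 were the probe sets of Slc25a5. By the unmoderated test or at a fold over 1.5, 0 was lower. In WTCR against Dgat1-/-AL livers, 4 members passed the adjusted threshold, against 0 with the arrays of these groups alone, 0 under the replicate block in either fit, 2 without both doubted arrays, 7 without the dimmest probe sets, 2 with a trend and robust spread, 0 by the unmoderated test, and 0 to 6 without any 1 array. There, 5 members were higher after quantile normalization was repeated, and 4 were higher and 3 lower at a fold over 1.5. Among named members the block changed no other call than that of Slc25a25 in the fit of all arrays and added Slc25a39 in the fit of both groups. The cause of these changes was not tested.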
